A study of Mus musculus with 2 samples.

Results

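The microRNA genes Mir15a, Mir16-1, Mir15b, Mir16-2, Mir195a and Mir497 were examined, 6 of the 2202 microRNA genes counted in these tables. They were taken by name from GENCODE M21, the annotation of the tables, where the chromosome 11 pair is listed as Mir195a and Mir497, by a rule on names that uses no measured value, although earlier results of these data were known when the members were chosen. They form 3 clusters of 2 hairpins each, on chromosomes 14, 3 and 11. The libraries came from total RNA of the gastrocnemius, a calf muscle, of B6CASTF1/J females, first-generation hybrids of the C57BL/6J and CAST/EiJ strains, at an age of 25 days. The 2 libraries are biological replicates 1 and 2 of 1 group, with no treatment, genotype or second tissue to set them against. In the labels the source females have their own numbers but a common donor identifier, so the spread between the libraries may or may not be a spread between animals. Levels are given as CPM: reads on the strand of the gene, as a share of the 1573213 such counts of replicate 1 or the 5429127 of replicate 2, scaled to a library total of 1000000. Replicate 2 was 3.45 times as deep. A count of 0 would allow up to 1.91 CPM in replicate 1 and 0.553 CPM in replicate 2, with 3 counts as the limit.

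A microRNA is cut from a hairpin in a longer primary transcript, and bases 2 to 8 of the mature strand, the seed, choose most of its messenger RNA targets. MicroRNAs of the miR-15 and miR-16 family are known as brakes on the cell cycle, with cyclins, cyclin-dependent kinases and the survival factor BCL2 among their targets in human cells. Loss of the human MIR15A and MIR16-1 locus is frequent in chronic lymphocytic leukaemia. In mice, miR-195 has been linked to the postnatal exit of heart muscle cells from division, and miR-195 and miR-497 to the quiescence of muscle stem cells.

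The mature 5p strands are shown because they define the family and because miR-16-5p is encoded at 2 loci. All sequences are from RefSeq (GRCm38.p6), written 5′ to 3′ with the seed in capitals.
miR-15a-5p: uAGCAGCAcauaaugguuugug
miR-15b-5p: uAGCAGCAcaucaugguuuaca
miR-16-5p: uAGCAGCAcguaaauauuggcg
miR-195a-5p: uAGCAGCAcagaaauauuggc
miR-497a-5p: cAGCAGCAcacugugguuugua
All 5 carry the seed AGCAGCA. Counted from 1 at the 5′ end, miR-195a-5p differs from miR-16-5p at 2 of 21 positions, G10A and U11G (the base of miR-16-5p first). miR-15b-5p differs from miR-15a-5p at 4 of 22 positions, A12C, G20A, U21C and G22A (the base of miR-15a-5p first). miR-497a-5p is the sole strand among them to open with C, and it matches miR-15a-5p at 17 of 22 positions but miR-16-5p at 11.

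Mir16-1 and Mir16-2 encode the same miR-16-5p, and this bears on what their counts hold. In both hairpins the 22 bases of miR-16-5p are followed by 1 more identical base and preceded by none, a shared run of 23 bases. A read lying wholly inside that run aligns equally to both hairpins. Reads tallied as aligning to more than 1 place, 69.1% ± 0.794 of the total (SD, n = 2), were given to no gene. How many of those reads were miR-16-5p was not tested. The 3p strands differ and can be placed, and are shown for that reason, with no capitals.
miR-16-1-3p: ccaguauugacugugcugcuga
miR-16-2-3p: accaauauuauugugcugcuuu
The longest run the 3p strands share is 9 bases. The counts of Mir16-1 and Mir16-2 are thus those reads that could be placed at 1 of them, and their levels are uncertain as measures of miR-16. None of the other 4 hairpins shares a run of 18 bases with any other microRNA hairpin of the annotation. The closest is Mir195a, which shares 16 bases with Mir195b. In the transcripts of GENCODE M21, each mature strand of those 4 hairpins matched exactly in its own microRNA gene, in no other microRNA gene and, on either strand, in no gene of another type. The tables count whole hairpins, so the 5p and 3p strands of a hairpin cannot be separated.

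In mm10, the hairpin of Mir15a (ENSMUSG00000093007.1) lies on chromosome 14 from 61632027 to 61632110 on the reverse strand. That of Mir16-1 (ENSMUSG00000092995.1) follows 54 bases downstream, from 61631880 to 61631972. Both lie inside Dleu2, a long non-coding RNA gene. Mir15a is intronic in all 8 Dleu2 transcripts that span it, whereas Mir16-1 touches an exon in 1 of the 9 that overlap it. Mir15b (ENSMUSG00000065580.2) lies on the forward strand of chromosome 3 from 69009772 to 69009835, and Mir16-2 (ENSMUSG00000065606.1) 66 bases further on, from 69009902 to 69009996. Both are intronic in each of the 5 spanning transcripts of Smc4, which encodes a subunit of condensin, the complex that compacts mitotic chromosomes. Mir497 (ENSMUSG00000105220.1) lies on the forward strand of chromosome 11 from 70234717 to 70234800, and Mir195a (ENSMUSG00000065411.2) begins 241 bases after its end, from 70235042 to 70235135. No host gene is annotated over this pair in GENCODE M21. Mir497b, another microRNA gene, lies opposite Mir497 and covers it fully.

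**Figure D1:**
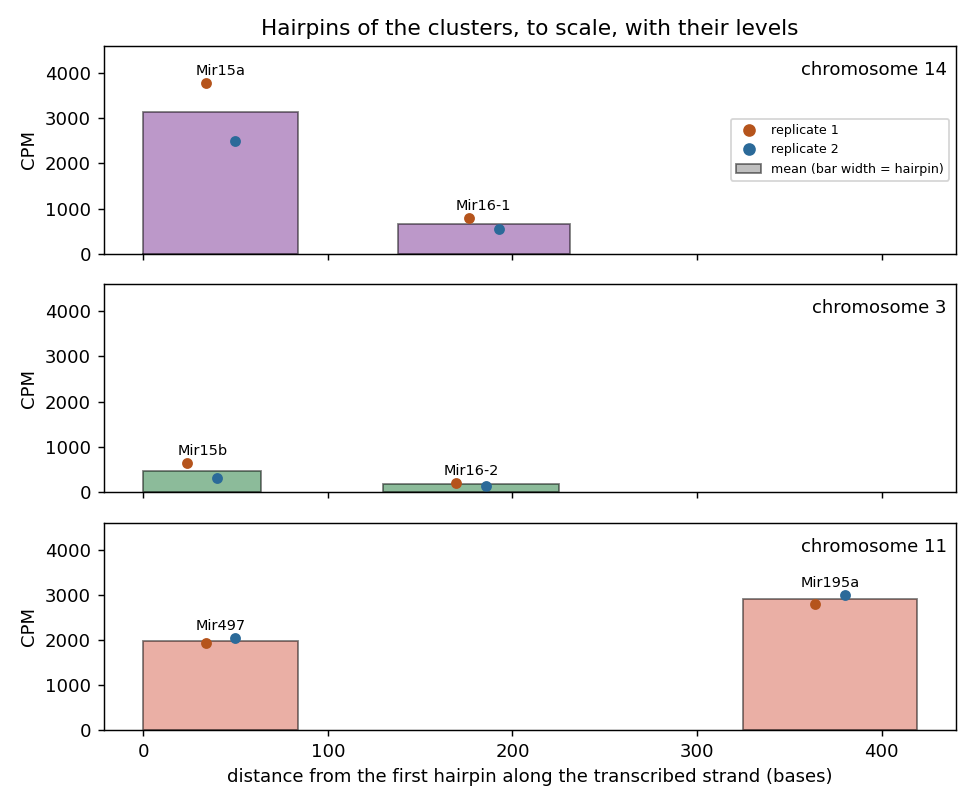
Hairpins of the 3 clusters drawn to scale along the transcribed strand (x axis, bases from the start of the first hairpin). Bars give the mean CPM and points give replicate 1 (left) and replicate 2 (right). On chromosomes 14 and 3 the first hairpin is the higher one, and on chromosome 11 the second, Mir195a, at 2898 CPM. The second hairpins on chromosomes 14 and 3 are shown by their placed reads alone.

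All 6 genes reached the minimum of 2 CPM in each library that defined detection, as did 14.7% of the 2202 genes counted. Together they held 1.01% of the counts of replicate 1 (exact 95% interval 0.997 to 1.03) and 0.852% of replicate 2 (0.844 to 0.859). The mean share was 0.932% ± 0.114 (SD, n = 2). Their median level was 1326 CPM, beside 130 CPM over the 324 detected genes. These libraries come from whole muscle, so a difference in level between them cannot be told apart from a difference in the share of the cells that express the gene.

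Mir15a, the first hairpin of the Dleu2 cluster, stood at 3769 CPM in replicate 1 (5929 counts) and 2489 CPM in replicate 2 (13514 counts). It ranked 38 and 46 among all microRNA genes. Its partner Mir16-1 stood at 786 CPM in replicate 1 (1237 counts) and 548 CPM in replicate 2 (2973 counts). Both genes were higher in replicate 1.

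Mir15b, the first hairpin of the Smc4 cluster, stood at 632 CPM in replicate 1 (994 counts) and 312 CPM in replicate 2 (1695 counts). By placed reads Mir16-2 was the lowest of the 6, at 203 CPM in replicate 1 (319 counts) and 139 CPM in replicate 2 (754 counts). It ranked 143 and 156. This cluster was also higher in replicate 1, in both hairpins.

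Mir195a reached 2804 CPM in replicate 1 (4412 counts) and 2991 CPM in replicate 2 (16237 counts). Mir497 reached 1931 CPM in replicate 1 (3038 counts) and 2038 CPM in replicate 2 (11065 counts). The genes of the chromosome 11 pair differed least between the libraries of the 3 clusters, and both were slightly higher in replicate 2. No member had a read on the opposite strand. The counts on the strand opposite Mir497b equalled those of Mir497 in each library, and the column that ignores strand lists Mir497 at 0.

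**Figure D2:**
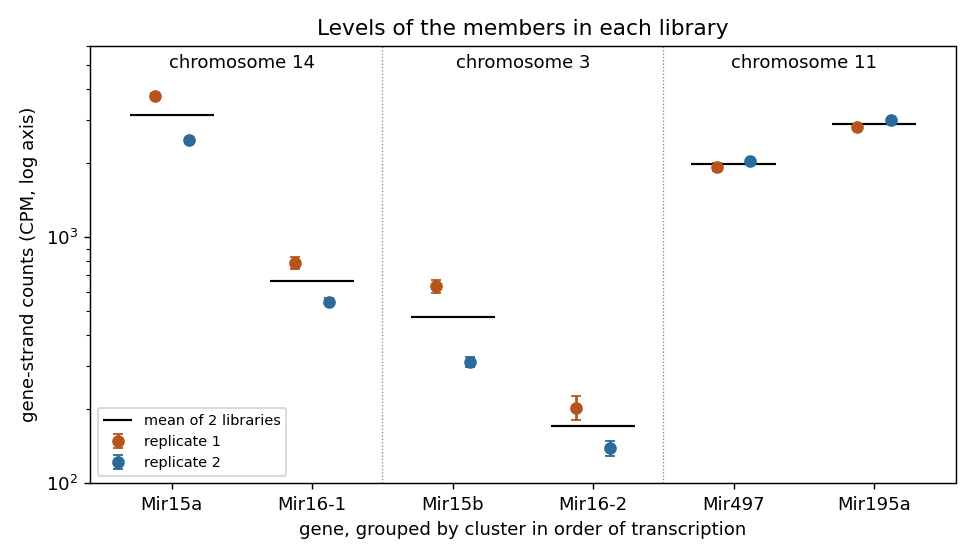
CPM on a log axis for each member in replicate 1 (left point) and replicate 2 (right point), with exact 95% intervals of counting error and the mean of both as a line. The points of Mir195a and Mir497 lie close together, and those of Mir15b lie farthest apart, at 632 and 312 CPM. Mir16-1 and Mir16-2 are shown by their placed reads alone.

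By mean level the order was Mir15a at 3129 ± 905 CPM, Mir195a at 2898 ± 132, Mir497 at 1985 ± 75.7, Mir16-1 at 667 ± 169, Mir15b at 472 ± 226 and Mir16-2 at 171 ± 45.2 (SD, n = 2 each). For Mir16-1 and Mir16-2 these are placed reads alone, without those inside the miR-16-5p run. Their places here and below, also per base of hairpin, are therefore not an order of expression. The ranges of Mir15a and Mir195a over the libraries overlapped, so these neighbours did not differ beyond their spread, and Mir15a was the higher in replicate 1 but the lower in replicate 2. The ranges of Mir16-1 and Mir15b also overlapped, although Mir16-1 was the higher in each library. Its exact 95% interval was 743 to 831 CPM in replicate 1, above 593 to 672 CPM for Mir15b, and 528 to 568 CPM in replicate 2, above 298 to 327 CPM for Mir15b. The ranges of the other neighbours did not overlap. CPM were not divided by hairpin length, since the 5p strands of all members are 21 or 22 bases long. Per base of hairpin, the order of the means was the same except that Mir15b, with a hairpin of 64 bases, stood above Mir16-1, with 93 bases, at 7.38 against 7.17 CPM per base. That exception held in replicate 1, at 9.87 against 8.45, and was reversed in replicate 2, at 4.88 against 5.89.

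Among the 6 members, the clusters on chromosomes 11 and 14 held most of the placed counts. Reads inside the run that Mir16-1 and Mir16-2 share were given to no gene. The sums of the Dleu2 and Smc4 clusters leave these reads out, whereas the chromosome 11 pair has no such run. The order of the clusters is therefore one of placed reads and not of expression. The chromosome 11 pair summed to 4736 CPM in replicate 1 and to 5029 CPM in replicate 2. In the Dleu2 cluster the sums were 4555 CPM for replicate 1 and 3037 CPM for replicate 2, and in the Smc4 cluster they were 835 and 451 CPM. By placed reads the leading gene changed with the library, and the shares given here are also those of placed reads. Mir15a held 37.2% of the counts of the 6 genes in replicate 1 (exact 95% interval 36.5 to 38.0) but 29.2% in replicate 2 (28.8 to 29.6). Mir195a held 27.7% in replicate 1 (27.0 to 28.4) and 35.1% in replicate 2 (34.7 to 35.6).

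Cluster partners differed in the level of their placed reads, and the ratio of partners within a library does not depend on its depth. Whether partners share a primary transcript was not tested. Mir15a exceeded Mir16-1 by 4.79-fold in replicate 1 (log2 ratio 2.26, exact 95% interval 2.17 to 2.35) and by 4.54-fold in replicate 2 (2.18, 2.13 to 2.24). These intervals overlapped. Reads inside the miR-16-5p run cannot be placed at Mir16-1, so this ratio sets Mir15a against the placed reads of Mir16-1 alone.

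Mir497 stood at 0.689 of Mir195a in replicate 1 (log2 ratio -0.54, -0.61 to -0.47) and at 0.681 in replicate 2 (-0.55, -0.59 to -0.52). This was the most reproducible partner ratio of the 3, with an SD of 0.011 on the log2 scale. Neither hairpin of this pair shares a mature strand with another gene, and Mir195a was the higher in both libraries.

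Mir15b exceeded Mir16-2 by 3.11-fold in replicate 1 (log2 ratio 1.64, 1.46 to 1.83) and by 2.25-fold in replicate 2 (1.17, 1.04 to 1.29). These intervals did not overlap, so counting error alone did not cover the difference, with an SD of 0.33 between the libraries. Reads inside the run that Mir16-2 shares with Mir16-1 cannot be placed, so this ratio sets Mir15b against the placed reads of Mir16-2 alone. Mir15b itself was the member whose level moved most.

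Counterparts at the related loci were compared in the same way. Mir15a exceeded Mir15b by 5.96-fold in replicate 1 (log2 ratio 2.58, 2.48 to 2.67) and by 7.97-fold in replicate 2 (2.99, 2.92 to 3.07), and these intervals did not overlap. Mir16-1 exceeded Mir16-2 by 3.87-fold in replicate 1 (1.95, 1.78 to 2.14) and by 3.94-fold in replicate 2 (1.98, 1.86 to 2.10). In both libraries Mir15a exceeded Mir15b, and the placed reads of Mir16-1 exceeded those of Mir16-2. Reads inside the run that the miR-16 hairpins share were given to no gene. The ratio of these hairpins therefore does not show which locus gave more miR-16. Between the libraries it was the steadier of the ratios compared here.

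**Figure D3:**
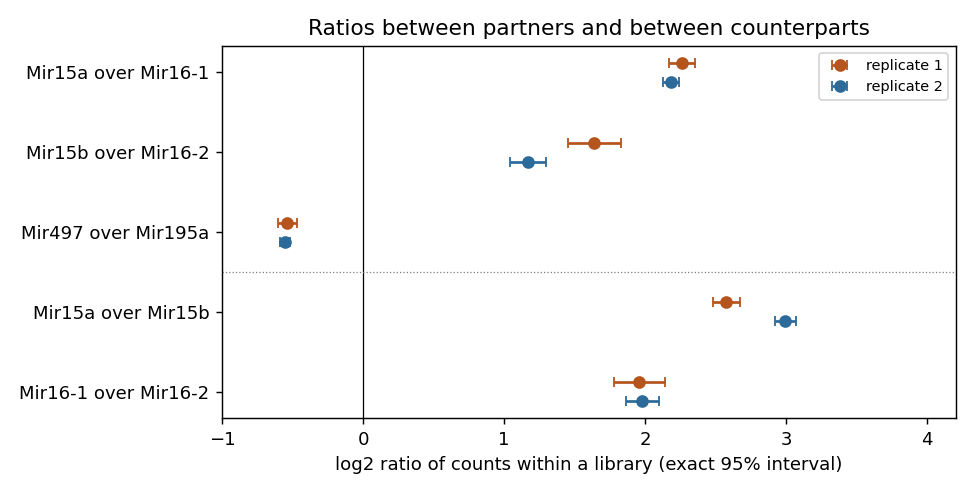
Log2 ratio of counts within replicate 1 (upper point of each row) and replicate 2 (lower point), with exact 95% intervals of counting error, for the 3 pairs of partners above the dotted line and the 2 pairs of counterparts below it. The intervals of the libraries separate for Mir15b over Mir16-2 and for Mir15a over Mir15b, and overlap in the other rows.

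The libraries were then compared with each other gene by gene, by a two-sided exact binomial test on the 364 genes whose counts summed to 10 or more over the libraries, with Benjamini-Hochberg adjustment over all of them at 0.05. This test sets reads as the only error and compares 2 libraries of 1 group, not conditions. Of the tested genes 45.3% were called, 30.2% as higher in replicate 1 and 15.1% as higher in replicate 2. All 6 members were called, 4 as higher in replicate 1 and 2 as higher in replicate 2, with a median log2 ratio of replicate 1 over replicate 2 of 0.53, beside 0.15 over all tested genes. With DESeq2 size factors the median of tested genes fell by 0.13, and 46.0% of all calls were higher in replicate 1, against 66.7% with library totals. With TMM sizes that share was 54.2%. The direction and call of each member were the same under both scalings. Both took only genes whose counts summed to 10 or more, a restriction set after the sizes from all genes had been seen. With all genes, the median fell by 0.20 and the share was 37.8% for DESeq2, and the median fell by 0.18 and the share was 40.2% for TMM. Each member kept its direction and call with these sizes too.

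The members split by cluster. Mir15b was 2.02-fold higher in replicate 1 (log2 ratio 1.02, 0.90 to 1.13; exact binomial test, adjusted p = 1.63e-63), and 46 of the 364 tested genes had a higher ratio. Mir15a was 1.51-fold higher (0.60, 0.55 to 0.64; exact binomial test, adjusted p = 5.00e-146). Mir16-2 was 1.46-fold higher (0.55, 0.35 to 0.74; exact binomial test, adjusted p = 1.77e-07) and Mir16-1 1.44-fold (0.52, 0.43 to 0.62; exact binomial test, adjusted p = 1.81e-24). All 4 also lay above the median of tested genes, by 0.37 to 0.87 on the log2 scale.

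Mir195a and Mir497 went slightly the other way. The log2 ratio of replicate 1 over replicate 2 was -0.09 for Mir195a (-0.14 to -0.04; exact binomial test, adjusted p = 0.000488) and -0.08 for Mir497 (-0.14 to -0.02; exact binomial test, adjusted p = 0.0207). In replicate 2 Mir195a was thus 6.63% higher and Mir497 5.53% higher. Both ratios lay between the quartiles of tested genes, which were -0.14 and 0.49, and at -0.24 and -0.23 relative to their median.

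**Figure D4:**
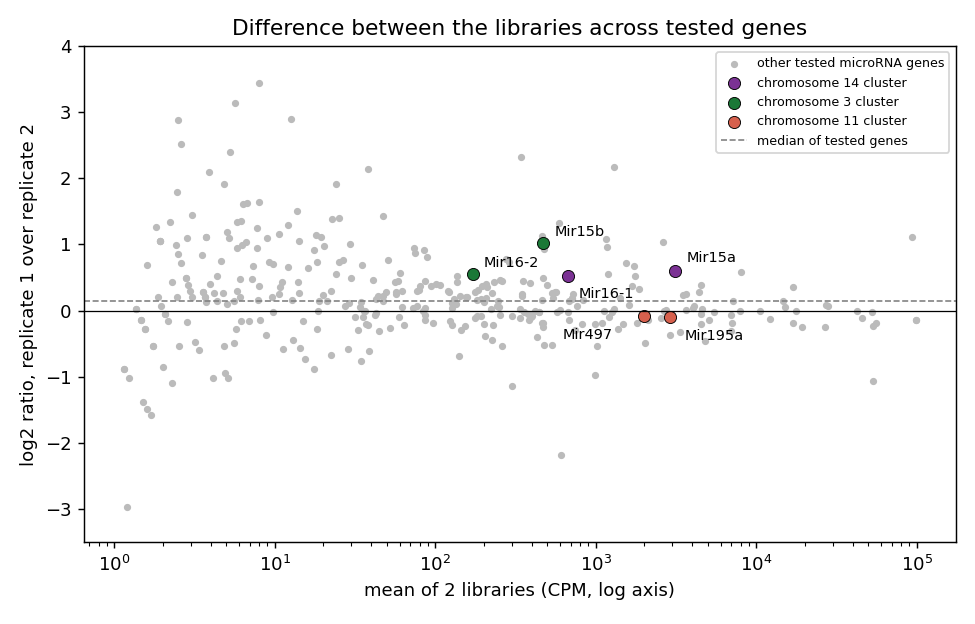
Log2 ratio of replicate 1 over replicate 2 (y axis) against the mean CPM on a log axis (x axis) for the 364 tested genes, with the members coloured by cluster and the median of tested genes dashed. The members on chromosomes 14 and 3 lie above the median, at 0.52 to 1.02, and those on chromosome 11 just under 0.

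Markers of other cell types also differed between the libraries. Their counts stand beside the 45.3% of all tested genes called, 30.2% as higher in replicate 1 and 15.1% as higher in replicate 2. The 5 tested epithelial genes of 6 listed were all higher in replicate 1, and their list summed to 495 CPM in replicate 1 and to 246 CPM in replicate 2. Both listed genes of red blood cells, Mir451a and Mir144, were higher in replicate 1, with a sum of 2703 CPM against 587 CPM in replicate 2. Of 4 listed genes of white blood cells, 3 were called, all with the higher level in replicate 1, with sums of 2701 and 2002 CPM, but with DESeq2 size factors 2 were higher in replicate 1 and 1, Mir150, in replicate 2. The 5 smooth muscle and fibroblast genes summed to 132824 and 63364 CPM, with 2 higher in replicate 1 and 1 higher in replicate 2. Mir143 gave most of these sums, at 127590 CPM in replicate 1 and 59272 CPM in replicate 2. With Mir145a it was higher in replicate 1, whereas Mir214 was higher in replicate 2, at 1674 and 2355 CPM. Of the 7 nerve genes, Mir338 alone was detected, at 1581 and 749 CPM, and Mir9-2 and the Mir124a genes were at 0 in both libraries. Reads aligning to more than 1 place were given to no gene, so a count of 0 does not show that a microRNA was absent. The endothelial gene Mir126a was higher in replicate 2, at 93328 CPM in replicate 1 and 103367 in replicate 2. The 8 skeletal muscle genes were all detected, with 2 higher in replicate 1 (1 with DESeq2 size factors) and 4 in replicate 2. They summed to 35711 CPM in replicate 1 and to 74278 CPM in replicate 2. Most of each sum was Mir206, at 34864 CPM in replicate 1 and 72482 CPM in replicate 2. The list names Mir1a-1 with Mir1a-2, and Mir133a-1 with Mir133a-2. Reads aligning to more than 1 such gene were left out, so the sums and the lead of Mir206 are those of placed reads. How many reads of these genes were left out was not tested. The part of these cell types in the differences of the members was not tested.

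Other genes of the family were compared with the 6. The tables hold 5 more genes whose annotated mature strand has the same seed: Mir322, Mir195b, Mir6342, Mir6353 and Mir6419. Of these only Mir322, which encodes the mouse counterpart of human miR-424, had a count, and Mir195b, Mir6342, Mir6353 and Mir6419 were at 0 in both libraries. Mir322 is on the X chromosome, and its strand is shown with that of its neighbour Mir503, whose seed differs in its last base.
miR-322-5p: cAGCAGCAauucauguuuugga
miR-503-5p: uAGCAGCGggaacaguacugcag
Mir322 reached 19078 CPM in replicate 1, or 1.88 times the sum of the 6 members, and 14852 CPM in replicate 2, or 1.74 times. Mir503 reached 158 CPM in replicate 1 and 117 in replicate 2. The members therefore held 34.7% of all counts on same-seed genes in replicate 1 and 36.4% in replicate 2. The mean was 35.6% ± 1.25 (SD, n = 2). Reads inside the miR-16-5p run were given to no gene, so the sums of the members and these shares leave them out. The counts of Mir16-1 and Mir16-2 can also include their 3p strands, whose seeds differ from AGCAGCA. Of the 8 other family genes listed by name, Mir322 and Mir503 were tested and both were higher in replicate 1. Mir1907 had 0 counts in replicate 1 and 1 count in replicate 2, and Mir497b was at 0.

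**Figure D5:**
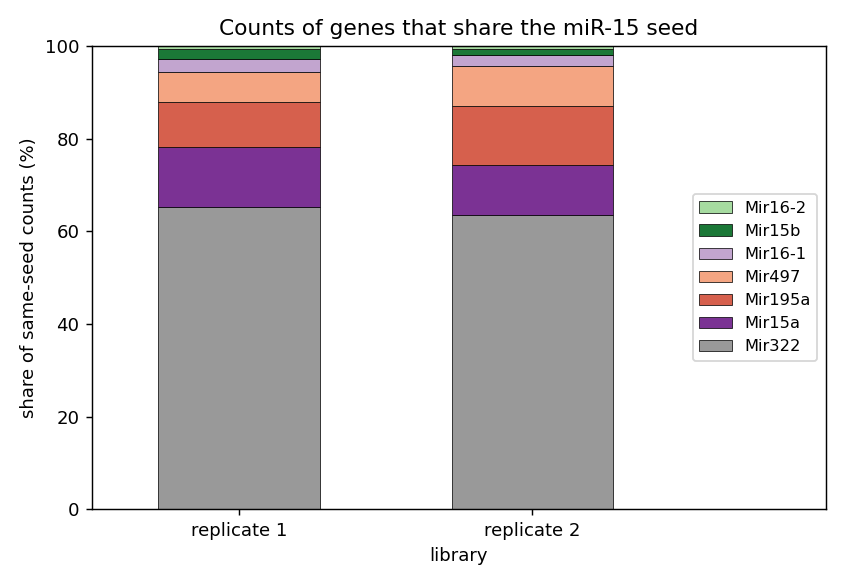
Share of the counts on all genes with the seed AGCAGCA that each gene held, in replicate 1 (left) and replicate 2 (right). Mir322 held 65.3% in replicate 1 and 63.6% in replicate 2, and Mir15a, Mir195a and Mir497 held most of the rest.

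Other cell cycle microRNAs moved between the libraries as follows. The miR-17 and miR-106b clusters are known to favour proliferation. Of their 9 listed genes, 8 were tested and 6 were called, all with the higher level in replicate 1, beside 45.3% of all tested genes called and 30.2% higher in replicate 1. With TMM or DESeq2 sizes Mir92-1 was also called, as higher in replicate 2. The list summed to 8141 CPM in replicate 1 and to 5536 CPM in replicate 2. Among them, Mir106b stood at 1565 CPM in replicate 1 and at 800 in replicate 2, and Mir93 at 2134 and 1336 CPM. Their median log2 ratio of replicate 1 over replicate 2 was 0.46, beside 0.53 for the 6 members and 0.15 for all tested genes. Of the Mir34 genes, which p53 induces, Mir34a had 293 and 212 CPM and Mir34c 113 and 64.5 CPM, both higher in replicate 1. Mir34b had 4.45 and 1.66 CPM and did not pass the test.

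The genes most like each member were found by the Euclidean distance of log2(CPM + 1) over the 2 libraries. With so few libraries this measures like levels and no more. For Mir15b they were Mir221, at a distance of 0.060, Mir708 and Mir29c. For Mir15a they were Mir125a, at 0.37, Mir28a and Mir98. This was the largest distance to a nearest gene among the 6 members. Mir98 was also the nearest gene to Mir195a, at 0.13, followed by Mirlet7e and Mir382. For Mir497 they were Mir532, at 0.039, Mir376c and Mir99b. For Mir16-1 they were Mir542, at 0.26, Mir320 and Mir329, and for Mir16-2 Mir132, at 0.21, Mirlet7a-1 and Mir125b-2.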

How the data were processed

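Small RNA libraries, with a size range under 30 in the labels, were deposited as 1 table of raw counts per library, with 3 count columns for each microRNA gene and 4 tally rows. The deposited counts were made on mm10 with annotation M21, per the labels and the readme files. What aligned and counted the reads, and with which filters, is not given in the sources used here. From the values, the columns hold reads on either strand, on the gene strand and on the opposite strand, and the gene-strand column was used. The tally rows stayed out of library totals: reads that aligned to more than 1 place took 68.6% of replicate 1 and 69.7% of replicate 2, and gene-strand counts took 21.9% ± 0.832 (SD, n = 2). All 2202 identifiers matched GENCODE M21.

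CPM used gene-strand totals. Ratios used an offset of 0.5 counts, and intervals were exact (Clopper-Pearson) at 95%. Intervals and limits cover only the counting error of reads. No molecular identifiers were used, so the intervals and limits do not cover error in the counting of molecules. With 1 library per replicate and 1 group, no quasi-likelihood fit was possible, so the libraries were compared by an exact binomial test. That test was tried on simulated counts with counting error alone, so its behaviour at the spread of these libraries was not tested. A chi-square of 134414 on 363 degrees of freedom showed that the libraries differ beyond counting error. Alternative scalings used edgeR 4.0.16 (TMM) and DESeq2 1.42.0 in R 4.3.3 on genes whose counts summed to 10 or more, a restriction set after sizes from all genes had been seen, and again on all genes. Tables, exact tests and plots were made with scipy 1.17.1, numpy 2.4.6, matplotlib 3.10.9 and pandas 2.3.3 under Python 3.11.15. Genes were named as follows: the 6 members, microRNA genes opposite them, genes of the same seed, the listed cell cycle genes and cell type markers, and the 3 nearest genes in pattern to each member. The members and lists were chosen with earlier results of these data known.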

Additional observations from a re-analysis of the deposited data

How the results depend on the processing

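No CPM minimum tried could exclude a member, since the lowest level was 139 CPM, for Mir16-2 in replicate 2. The number of members detected was 6 with a CPM minimum of 1, of 5 or with none. It was 5 with the either-strand column, where Mir497 is listed at 0 because Mir497b lies opposite, so that column gives no ratio of Mir497 over Mir195a. The number differing between the libraries was 6 with TMM sizes, with DESeq2 size factors and without a filter. It was also 6 with either scaling computed from all genes (added after the data were seen), and 5 with the either-strand column. Over all 364 tested genes, 166 were called with TMM sizes and 174 with DESeq2 size factors. Computed from all genes, TMM sizes gave 174 and DESeq2 size factors 172. Without a filter 162 of 664 genes were called, and with the either-strand column 152 of 336. With DESeq2 size factors the log2 ratio of replicate 1 over replicate 2 was 0.47 for Mir15a, 0.40 for Mir16-1, 0.89 for Mir15b, 0.42 for Mir16-2, -0.22 for Mir195a and -0.20 for Mir497. With DESeq2 size factors from all genes these were 0.40, 0.32, 0.82, 0.35, -0.29 and -0.28 in the same order, and Mir503 was no longer called. Leaving out each library gave log2 partner ratios of 2.18 to 2.26, 1.17 to 1.64 and -0.55 to -0.54 in the order of chromosomes 14, 3 and 11, and a share of the members of 0.852 to 1.01%. With all aligned reads as denominator the share was 0.220%, since that denominator includes reads aligned to several places. No paired analysis was possible because both libraries belong to 1 group. Counting error weighs most on Mir16-2, with 319 counts in replicate 1. Reads inside the run it shares with Mir16-1 were given to no gene, which more depth would not change.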

Other observations

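Adjacent microRNA genes elsewhere give a scale for the cluster partners. Among the other 101 pairs of detected neighbours on the same strand with gaps of at most 10000 bases, the log2 ratios of replicate 1 over replicate 2 of the 2 neighbours differed by a median of 0.22 (quartiles 0.096 and 0.45). Mir497 and Mir195a differed by 0.015, and 4 of the 101 pairs differed by less. Mir15a and Mir16-1 differed by 0.076, with 21 pairs below them. Mir15b and Mir16-2 differed by 0.47, with 76 pairs below them. In level, neighbours elsewhere differed by a median of 2.52 on the log2 scale, beside 0.55 for Mir497 and Mir195a, 1.47 for Mir15b and Mir16-2 and 2.23 for Mir15a and Mir16-1. Some pairs share a gene, and part of their hairpins share mature strands with other loci, so these values are a description. The limit on the gap was chosen after the data were seen.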
